A study of Mus musculus with 11 samples.

Results

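The 34 genes described here encode tight junction and desmosome proteins and the classical cadherins. They were chosen by name, and all 34 were found among the 27179 genes of the count tables. They comprise 15 claudins, 7 other tight junction genes (*Ocln*, *Marveld2*, *Marveld3*, *Tjp1*, *Tjp3*, *F11r* and *Cgn*), the cadherins *Cdh1* and *Cdh3*, and 10 desmosome genes (*Dsg2*, *Dsg3*, *Dsc2*, *Dsc3*, *Dsp*, *Jup*, *Pkp1*, *Pkp2*, *Pkp3* and *Perp*). RNA-seq had been performed on 11 libraries of mouse mammary epithelium. Freshly sorted cells came from wild type virgin FVB/N females, 8 weeks old by the labels, and were divided by surface antigens into basal cells enriched for mammary stem cells (MaSC/basal, CD24+CD29hi), luminal progenitor-enriched cells (LP, CD24+CD29loCD61+) and mature luminal-enriched cells (ML, CD24+CD29loCD61-), with 3 libraries of each. A single library was made from mammosphere cells, which are MaSC/basal cells of the same strain, genotype and age grown in suspension for 1 week, and a single library from Comma Dβ cells (CommaD-βGeo), a Balb/c line whose source animal is given as mid-pregnant and which is 1 established line under maintenance culture. The gates enrich for a cell type and do not purify it. The study describes its sorted libraries as independent samples, but the labels do not tie them to animals, so p-values measure the spread between these libraries. The submitted name of MaSC/basal replicate 1 contains the name of the tumour suppressor p53, although its genotype is given as wild type.

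Tight junctions seal the space between neighbouring epithelial cells near the lumen. Claudins form the paracellular strands and set which ions pass, occludin and the related MARVEL-domain proteins sit in the same strands, and the scaffolds ZO-1 (*Tjp1*), ZO-3 (*Tjp3*) and cingulin (*Cgn*) tie them to actin. Desmosomes are spot welds that anchor keratin filaments: desmogleins and desmocollins are their adhesive cadherins, plakoglobin (*Jup*) and plakophilins bind the cadherin tails, and desmoplakin (*Dsp*) reaches the filaments. In the mammary duct the luminal cells line the lumen and carry tight junctions, whereas the basal layer contacts the basement membrane and is held to itself and to the luminal layer largely by desmosomes and cadherins.

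Totals ran from 19958838 to 75795034 counts per library. Levels are given as CPM (counts scaled to library size) with trimmed mean of M-values (TMM) factors, and as RPKM (the same per kilobase of gene length) where different genes are compared. The basal keratin *Krt5* was at 2855 to 3445 CPM in MaSC/basal libraries against 6.38 to 141 CPM in luminal libraries, and the luminal keratin *Krt18* at 79 to 139.99 against 3065 to 3935 CPM. The progenitor marker *Kit* was at 467 to 706 CPM in LP and 148 to 298 CPM in ML libraries, and the progesterone receptor gene *Pgr* at 45 to 118 and 299.8 to 526 CPM. In the Comma Dβ library *Krt8* was at 16.4 CPM and *Krt5* at 488 CPM. ML replicate 3 stood apart: the epidermal keratins *Krt1* and *Krt10* reached 52.5 and 92.3 CPM there, against 1.73 and 1.46 and 3.42 and 3.62 CPM in the other ML libraries, and its *Krt5* was at 141 CPM against 13.2 and 14.6 CPM.

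Of the 34 genes, 31 passed the filter of over 0.5 CPM in at least 3 libraries and were tested, and each of the 31 would also have passed without the sorted population in which it was highest. *Cldn9*, *Cldn11* and *Cldn19* did not exceed 0.311 CPM in any library. *Cldn19* had 0 counts in the mammosphere library and *Cldn11* had 0 counts in the Comma Dβ library, where 3 counts would be 0.0676 and 0.102 CPM.

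The sequences just before the start sites of 4 genes that lie at the centre of the findings below are shown to give the contrast its genomic setting: *Cldn4* and *Cldn3*, neighbouring claudin genes that were both far lower in MaSC/basal cells, *Cldn6*, a claudin that differed between all 3 populations, and *Tjp3*, a scaffold gene. RefSeq promoters (GRCm38.p6) were matched for 20 of the 34 genes, and 250 bases upstream of the first listed start site are printed 5′ to 3′ on the strand of the gene, with any E-box (CAGGTG, or CACCTG, which is the same site on the other strand) in capitals. The E-box is the motif bound by the SNAI and ZEB families of repressors. *Cldn4* (Entrez 12740, chr5:134945123-134946934) has its window at chr5:134946935-134947184 on the minus strand, *Cldn3* (Entrez 12739, chr5:134986214-134987476) at chr5:134985964-134986213 on the plus strand, *Cldn6* (Entrez 54419, chr17:23679348-23682446) at chr17:23679115-23679364 on the plus strand and *Tjp3* (Entrez 27375, chr10:81273188-81291581) at chr10:81291582-81291831 on the minus strand.
Cldn4: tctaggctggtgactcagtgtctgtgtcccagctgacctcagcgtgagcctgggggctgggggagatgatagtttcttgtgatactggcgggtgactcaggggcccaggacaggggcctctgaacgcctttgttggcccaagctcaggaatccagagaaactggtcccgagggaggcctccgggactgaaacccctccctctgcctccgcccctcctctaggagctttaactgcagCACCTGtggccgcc
Cldn3: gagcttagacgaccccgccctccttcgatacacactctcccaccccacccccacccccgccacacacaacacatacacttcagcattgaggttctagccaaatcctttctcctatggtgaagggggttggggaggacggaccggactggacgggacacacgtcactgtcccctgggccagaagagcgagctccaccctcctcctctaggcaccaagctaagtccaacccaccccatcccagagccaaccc
Cldn6: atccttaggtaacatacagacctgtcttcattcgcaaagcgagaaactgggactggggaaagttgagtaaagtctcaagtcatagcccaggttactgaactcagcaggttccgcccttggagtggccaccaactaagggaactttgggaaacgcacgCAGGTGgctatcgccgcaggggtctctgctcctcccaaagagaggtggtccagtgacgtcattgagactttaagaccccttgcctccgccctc
Tjp3: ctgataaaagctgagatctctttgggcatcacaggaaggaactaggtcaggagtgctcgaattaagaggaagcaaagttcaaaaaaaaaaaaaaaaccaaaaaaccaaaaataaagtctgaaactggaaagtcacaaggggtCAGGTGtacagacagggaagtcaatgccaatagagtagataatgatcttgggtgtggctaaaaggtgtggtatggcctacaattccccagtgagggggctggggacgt

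The E-box lay 14 bases before the start site of *Cldn4*, 93 bases before that of *Cldn6* and 108 bases before that of *Tjp3*, and the *Cldn3* window held none. Across all start sites listed for a gene, 6 of 20 members (30%) held an E-box on either strand within 250 bases: *Cldn4*, *Cldn6*, *Cldn7*, *F11r*, *Ocln* and *Tjp3*. Among all 27025 genes with a listed promoter, 19.4% did. ACCGGT, the core of the motif bound by grainyhead-like factors and its own reverse complement, was in 0 of the 20 member windows and in 2.13% of all genes' windows. These are letter matches only.

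Claudin transcripts were far scarcer in the basal than in the luminal layer. The summed RPKM of the 15 claudins was 64.5 to 82.8 in MaSC/basal libraries, 1637 to 2340.3 in LP libraries and 2269 to 2829.96 in ML libraries, without overlap between MaSC/basal and luminal libraries. In this bulk RNA, fewer cells expressing a gene and less RNA per cell cannot be told apart. The luminal markers measured alongside summed to 1361 to 1613 CPM in MaSC/basal libraries and 12639.9 to 14837 and 14969.9 to 17747 CPM in LP and ML libraries, and the part that luminal RNA within the basal gate has in the low claudin levels was not tested.

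**Figure D1:**
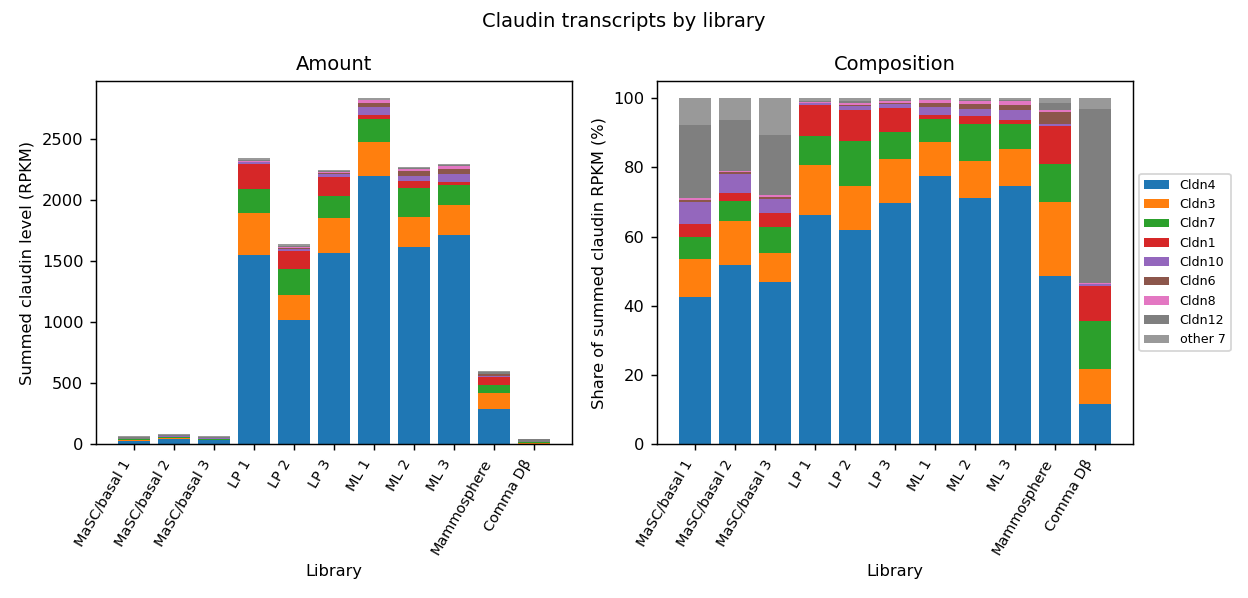
Claudin transcripts in each of the 11 libraries: the left panel stacks the RPKM of the claudin genes, and the right panel gives each gene's share of that sum in percent, with 7 low claudins pooled as other. LP and ML libraries reached 1637 to 2829.96 RPKM against 64.5 to 82.8 RPKM in MaSC/basal libraries, *Cldn4* held the largest share in every sorted library, and *Cldn12* (dark grey) held 50.2% in Comma Dβ cells.

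The composition of the pool differed along with its size. *Cldn4*, a claudin of tight, lumen-lining epithelia, provided 61.9 to 69.6% of claudin RPKM in LP libraries and 71.1 to 77.6% in ML libraries, and 42.6 to 51.9% in MaSC/basal libraries. *Cldn12*, a widely expressed claudin linked to calcium permeability, provided 14.6 to 21% of the MaSC/basal pool but 0.334 to 0.672% and 0.232 to 0.365% of the LP and ML pools. *Cldn1*, the barrier claudin that the epidermis depends on, provided 6.8 to 8.94% of the LP pool and 1.17 to 2.33% of the ML pool.

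Counts of called genes are at an adjusted p under 0.05 by edgeR (quasi-likelihood test, Benjamini-Hochberg over 15422 genes). A log2 fold change is the first population minus the second, so negative values were lower in MaSC/basal cells. Against LP cells, 20 of the 31 tested members were lower and 9 higher in MaSC/basal cells, in a comparison where 57.4% of all tested genes were called (28% lower and 29.4% higher in MaSC/basal cells). Against ML cells, 19 were lower and 7 higher, beside 58.7% of all genes (29.7% lower and 28.9% higher). Against the mean of LP and ML, 21 were lower and 10 higher, beside 61.7% of all genes (30.5% lower and 31.2% higher). The median log2 fold change of the members was -1.58 against LP, -1.90 against ML and -1.55 against both, where the medians of all tested genes were -0.00787, -0.00581 and -0.0129.

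The direction differed between the roles. Of 12 tested claudins 9 were lower and 3 higher in MaSC/basal than in luminal cells (median log2 fold change -4.53), and all 7 of the other tight junction genes were lower (median -5.02). Of 10 desmosome genes 6 were higher and 4 lower (median 0.95), and the cadherins went opposite ways. Within batch 1 and within batch 2, which both hold MaSC/basal, LP and ML libraries, all 29 calls against LP and all 26 calls against ML had the same direction as in the pooled fit. The calls came from these same libraries, so this agreement was largely fixed in advance and is no separate support. Without MaSC/basal replicate 1, the library with the discordant name, 18 members were lower and 7 higher against LP (23.6% and 25.9% of all genes) and 19 lower and 6 higher against ML (26.3% and 25.7% of all genes).

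**Figure D2:**
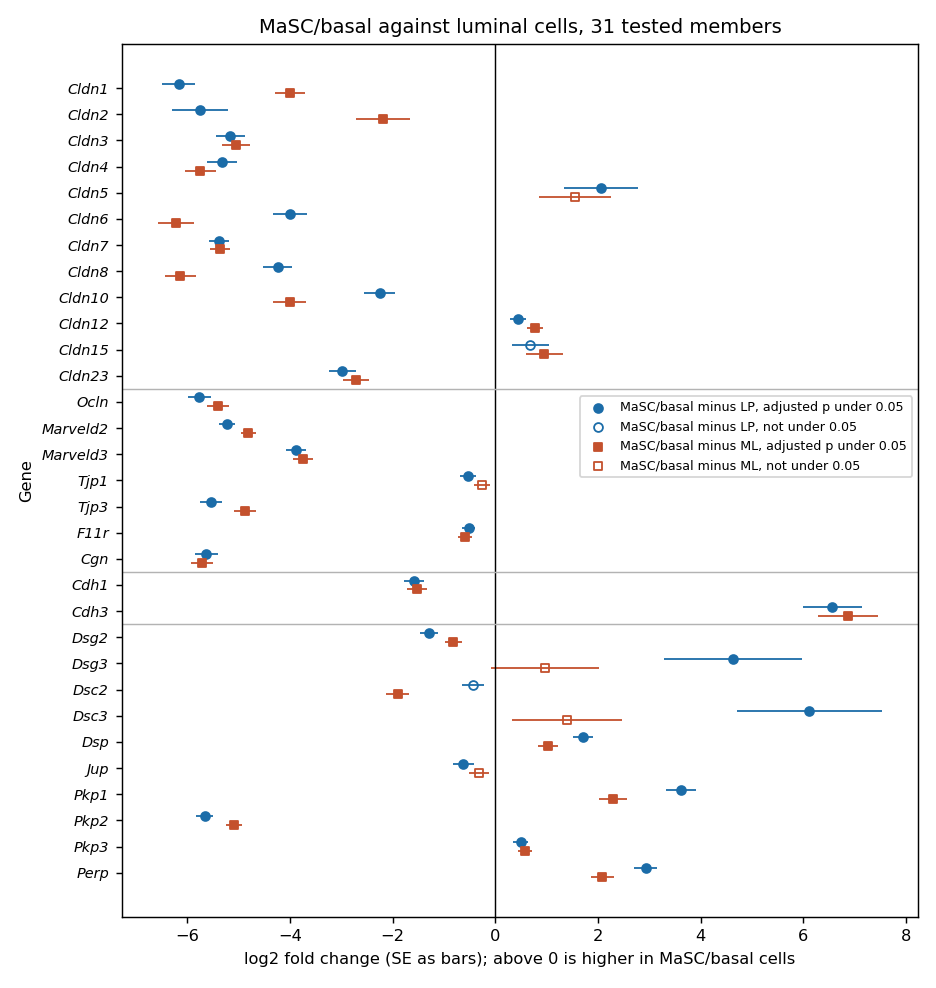
Log2 fold changes of the 31 tested members between MaSC/basal cells and LP cells (circles) or ML cells (squares), with the standard error as bars, grouped into claudins, other tight junction genes, cadherins and desmosome genes. Filled symbols have an adjusted p under 0.05. The other tight junction genes all lie left of 0, whereas desmosome genes lie on both sides, from -5.66 for *Pkp2* to 6.12 for *Dsc3* against LP.

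Among single claudins, *Cldn4* was at 49.7, 77.8 and 58.5 CPM in the MaSC/basal libraries, 2810.03, 1837 and 2835 CPM in LP and 3977, 2925 and 3095 CPM in ML. It was 40.2-fold lower in MaSC/basal than in LP cells (log2 fold change -5.33, SE 0.29, adjusted p = 5.23e-07) and 53.7-fold lower than in ML cells (log2 fold change -5.75, SE 0.30, adjusted p = 3.14e-07). The lowest luminal library was far above the highest MaSC/basal library. *Cldn3*, the neighbour of *Cldn4* on chromosome 5 with 39279 bases between them, was at 9.01, 13.2 and 7.25 CPM in MaSC/basal, 429, 264 and 360.2 CPM in LP and 349, 312 and 315 CPM in ML. The differences were 35.7-fold and 33.1-fold, both to the luminal side (adjusted p = 4.72e-07 and 3.92e-07). *Cldn7*, another barrier-forming claudin of simple epithelia, was at 5.9, 7.12 and 7.57 CPM in MaSC/basal, 287, 310.3 and 261 CPM in LP and 270.2, 345 and 232 CPM in ML, a 41.7-fold and a 41.1-fold difference. These 3 claudins were each far higher in both luminal populations and were not called between LP and ML, with log2 fold changes of -0.42 (SE 0.24) for *Cldn4*, 0.11 (SE 0.23) for *Cldn3* and 0.02 (SE 0.17) for *Cldn7*.

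A second set of claudins separated LP from ML cells. *Cldn1* was at 7.62, 6.0 and 9.2 CPM in MaSC/basal, 671, 474 and 496 CPM in LP and 107, 171 and 87.8 CPM in ML libraries. The LP level was 71.9-fold above MaSC/basal and 4.48-fold above ML (log2 fold change 2.16, SE 0.27, adjusted p = 8.96e-04), and no library of one population reached the range of another. *Cldn2*, which forms cation and water pores in leaky epithelia, was low overall but also highest in LP, at 11.9, 12.2 and 8.39 CPM against 0.792, 1.5 and 0.273 CPM in ML and 0.153, 0.279 and 0.17 CPM in MaSC/basal. Its difference between LP and ML was 11.8-fold (adjusted p = 0.00109), and although it was also called between MaSC/basal and ML (adjusted p = 0.00481), ML replicate 3 lay within the MaSC/basal range.

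*Cldn6*, *Cldn8* and *Cldn10* ran the other way within the luminal layer, lowest in MaSC/basal, intermediate in LP and highest in ML, without overlap of libraries. *Cldn6*, a claudin best known from embryonic epithelia, was at 0.543, 0.917 and 0.546 CPM in MaSC/basal, 6.21, 11.8 and 13.9 CPM in LP and 48.9, 49.6 and 51 CPM in ML, 4.68-fold higher in ML than in LP (log2 fold change -2.23, SE 0.29, adjusted p = 9.45e-04). *Cldn8*, a barrier claudin of the distal nephron and colon, was at 1.03, 0.618 and 0.754 CPM, 11.4, 14.8 and 19.9 CPM and 59.7, 47.8 and 62.8 CPM in the same order, a 3.71-fold difference between ML and LP (adjusted p = 9.03e-04). *Cldn10*, which forms charge-selective channels, was at 5.99, 6.44 and 4.13 CPM, 17.6, 23.1 and 38.6 CPM and 94.5, 69 and 102 CPM, a 3.35-fold difference (adjusted p = 0.00241). *Cldn23* was higher in both luminal populations (10.8 to 19.3 CPM) than in MaSC/basal cells (1.7 to 2.23 CPM), and its libraries overlapped between LP and ML. *Cldn6* lies 137 bases from *Cldn9*, which was at 0.0456 to 0.141 CPM in ML libraries.

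The 3 claudins that were higher in MaSC/basal cells moved little or were low. *Cldn12* was at 55.1, 49.2 and 49.2 CPM in MaSC/basal, 37.2, 44.8 and 30.5 CPM in LP and 26.8, 33.8 and 28.9 CPM in ML, 1.36-fold and 1.72-fold higher in MaSC/basal (adjusted p = 0.0341 and 0.00181). The call against LP was lost with batch as a block (log2 fold change 0.36, adjusted p = 0.068) and without any 1 of LP 1, LP 3, ML 1, MaSC/basal 1, MaSC/basal 2 and MaSC/basal 3 (log2 fold changes 0.31 to 0.49, adjusted p = 0.0503 to 0.131). *Cldn15*, a cation-channel claudin, was at 2.17 to 2.77 CPM in MaSC/basal and 0.775 to 2.08 CPM in luminal libraries, called against ML alone of the single populations (log2 fold change 0.95, SE 0.36, adjusted p = 0.0438). That call was lost without any 1 of LP 1, ML 1, ML 3, MaSC/basal 1, MaSC/basal 2 and MaSC/basal 3 (log2 fold changes 0.73 to 1.03, adjusted p = 0.0527 to 0.125), and the call against the luminal mean without any 1 of LP 1, LP 3, ML 1, ML 3, MaSC/basal 1, MaSC/basal 2 and MaSC/basal 3 (log2 fold changes 0.70 to 0.89, adjusted p = 0.060 to 0.118).

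*Cldn5*, the claudin of blood vessel endothelium, was at 3.89, 3.25 and 6.9 CPM in MaSC/basal, 0.247, 1.61 and 1.5 CPM in LP and 0.339, 2.31 and 2.1 CPM in ML. It was called against LP (log2 fold change 2.05, SE 0.73, adjusted p = 0.0333) and not against ML (log2 fold change 1.56, SE 0.70, adjusted p = 0.0804), though with batch as a block it was (log2 fold change 1.96, adjusted p = 0.0165). The call against LP was lost without any 1 of LP 1, LP 3, MaSC/basal 1 and MaSC/basal 3 (log2 fold changes 1.57 to 2.26, adjusted p = 0.0552 to 0.106), and the call against the luminal mean (log2 fold change 1.8, adjusted p = 0.0197) was lost without MaSC/basal 3 (log2 fold change 1.43, adjusted p = 0.0978). Of 12 endothelial markers, 9 were also called higher in MaSC/basal than in LP cells and 0 lower, and 4 higher and 1 lower than in ML cells, beside the 57.4% and 58.7% of all genes called in these comparisons. Their summed level was 102 to 207 CPM in MaSC/basal, 25.4 to 74.7 CPM in LP, 109 to 166 CPM in ML, 23.2 CPM in mammosphere and 4.8 CPM in Comma Dβ cells. Most of the sum in each ML library was *Vwf*, at 91 to 107 CPM, and without it the other 11 markers summed to 79.7 to 160.4 CPM in MaSC/basal, 15.1 to 43.9 CPM in LP and 15.3 to 70.4 CPM in ML libraries. None of the 12 was at 0 in all MaSC/basal libraries, the sort antibodies included CD31 (the product of *Pecam1*, at 18.1 to 39.5 CPM in MaSC/basal), and the part of endothelial RNA in the *Cldn5* values was not tested.

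The other strand and scaffold genes of the tight junction followed the luminal claudins, with a pair of exceptions. *Ocln*, encoding occludin, was at 2.14, 2.59 and 3.47 CPM in MaSC/basal, 167, 142 and 136 CPM in LP and 107, 131 and 107 CPM in ML (54.3-fold and 42.2-fold lower in MaSC/basal, SE 0.22 and 0.21 on the log2 scale). *Marveld2*, encoding the tricellular junction protein tricellulin and separated from *Ocln* by 43238 bases on chromosome 13, was at 3.26, 2.83 and 3.26 CPM, 123, 103 and 124 CPM and 83.9, 84.7 and 94.3 CPM in the same order. No luminal library came near the MaSC/basal range for either gene. *Marveld3*, the remaining member of this MARVEL family, was at 3.22 to 3.93 CPM in MaSC/basal and 41.1 to 62.9 CPM in luminal libraries (14.7-fold and 13.4-fold). *Cgn* was at 3.07, 3.13 and 2.88 CPM in MaSC/basal, 171, 110.2 and 168 CPM in LP and 159.7, 138 and 179.6 CPM in ML (49.4-fold and 52.5-fold).

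The scaffolds ZO-3 and ZO-1 differed in how far they moved. *Tjp3* was at 3.46, 3.95 and 3.18 CPM in MaSC/basal, 209.7, 129.7 and 153 CPM in LP and 112, 96.5 and 103 CPM in ML, 46.5-fold lower in MaSC/basal than in LP (log2 fold change -5.54, SE 0.21, adjusted p = 1.02e-07). *Tjp1* was at 206, 220.3 and 279 CPM, 343, 310.2 and 364 CPM and 253, 273 and 315 CPM, 1.44-fold lower in MaSC/basal than in LP (adjusted p = 0.0161) and not called against ML (log2 fold change -0.25, SE 0.16, adjusted p = 0.192). The *Tjp1* call against LP was lost without any 1 of LP 3, MaSC/basal 1 and MaSC/basal 2 (log2 fold changes -0.48 to -0.43, adjusted p = 0.0517 to 0.0722), and the call against the luminal mean (log2 fold change -0.39) was lost with batch as a block (log2 fold change -0.34, adjusted p = 0.0643). Per length, the ratio of *Tjp3* to *Tjp1* was 0.0268 to 0.0421 in MaSC/basal libraries, 0.981 to 1.43 in LP and 0.763 to 1.04 in ML libraries, so that the ZO-3 transcript was a small fraction of the ZO-1 transcript in the basal layer and of similar level in the luminal layer. *F11r*, encoding the junctional adhesion molecule JAM-A, was likewise well expressed in both layers, at 206, 211 and 171 CPM in MaSC/basal and 268 to 308 CPM in luminal libraries (1.43-fold and 1.51-fold, adjusted p = 0.00714 and 0.00322).

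**Figure D3:**
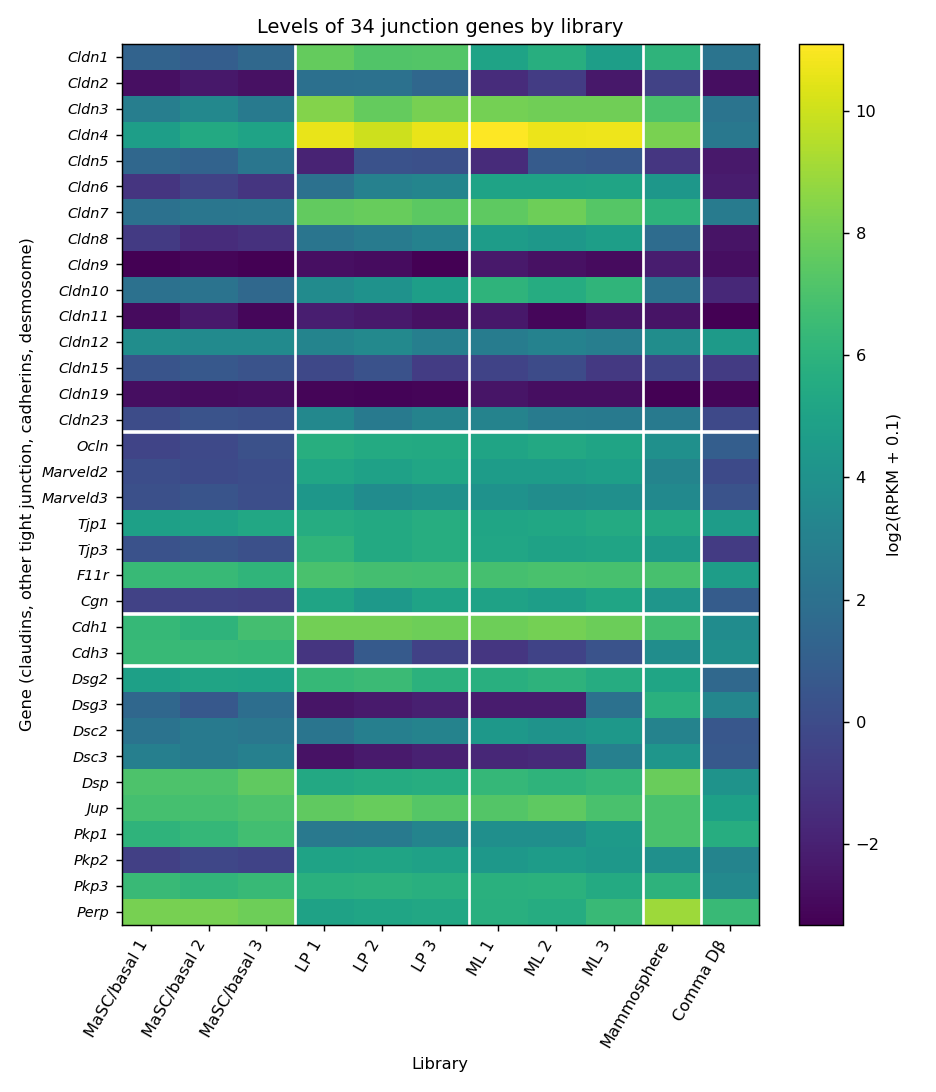
Level of all 34 genes in the 11 libraries as log2 of RPKM plus 0.1, with white lines between roles (rows) and between groups (columns). The luminal columns are bright for *Cldn4*, *Cldn3*, *Cldn7* and most other tight junction genes, *Cdh3* is bright in the MaSC/basal columns, and the *Dsg3* and *Dsc3* rows show ML replicate 3 apart from the other ML libraries.

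E-cadherin and P-cadherin, whose genes lie next to each other on chromosome 8 with 46438 bases between them, went in opposite directions. *Cdh1* (E-cadherin) was at 352, 299 and 479 CPM in MaSC/basal, 1155, 1158 and 1059.6 CPM in LP and 1075, 1180.3 and 1012 CPM in ML, 2.98-fold and 2.89-fold lower in MaSC/basal (adjusted p = 6.76e-05 and 7.35e-05). *Cdh3* (P-cadherin) was at 331, 356 and 325 CPM in MaSC/basal against 1.45, 6.36 and 2.4 CPM in LP and 1.56, 2.58 and 4.78 CPM in ML. It was 94.7-fold (log2 fold change 6.57, SE 0.58, adjusted p = 7.47e-06) and 117-fold (log2 fold change 6.87, SE 0.59, adjusted p = 5.58e-06) higher in MaSC/basal. In RPKM the ratio of *Cdh3* to *Cdh1* was 0.749 to 1.31 in MaSC/basal libraries, that is, both cadherins were at about the same level, and 0.00138 to 0.00607 in LP and 0.0016 to 0.00522 in ML libraries, where *Cdh1* exceeded *Cdh3* by 165 to 723-fold. Together the pair reached 157 to 189.8 RPKM in MaSC/basal libraries, against 241 to 264 RPKM in LP libraries and 230.5 to 268 RPKM in ML libraries, so the pool differed far less between the layers than its members did.

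Desmosome paralogs went opposite ways between the layers. Among plakophilins, *Pkp1*, the plakophilin of stratified epithelia, was at 299, 351 and 486 CPM in MaSC/basal, 25.3, 26 and 41 CPM in LP and 65.2, 65.5 and 102 CPM in ML, 12.3-fold and 4.88-fold higher in MaSC/basal (log2 fold change 3.62, SE 0.29, adjusted p = 4.29e-06 against LP). *Pkp2*, the plakophilin of simple epithelia and heart, was at 1.61, 2.09 and 1.87 CPM in MaSC/basal, 94.1, 99.5 and 88.8 CPM in LP and 58.9, 71.2 and 59.3 CPM in ML, 50.7-fold and 34-fold lower in MaSC/basal (log2 fold change -5.66, SE 0.16, adjusted p = 5.70e-08 against LP). *Pkp3*, which most epithelia express, was at 264, 220.5 and 254 CPM, 172, 186 and 167 CPM and 174, 180.4 and 139.6 CPM, 1.41-fold and 1.49-fold higher in MaSC/basal (adjusted p = 0.012 and 0.00488). By share of plakophilin RPKM, *Pkp1* provided 43.4 to 56.2% in MaSC/basal and 5.73 to 9.66% in LP libraries. *Pkp2* provided 0.335 to 0.478% and 32.5 to 34.4%, and *Pkp3* 43.4 to 56.3% and 57.9 to 60.3%. In ML libraries the shares of *Pkp1*, *Pkp2* and *Pkp3* were 14.8 to 25.5%, 22.1 to 25% and 51.4 to 62.1%.

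Among the desmosomal cadherins, *Dsg2* and *Dsc2*, the pair of simple epithelia, were higher in at least 1 luminal population, and *Dsg3* and *Dsc3*, the pair of basal keratinocytes, were higher in MaSC/basal than in LP cells. *Dsg2* was at 169, 194 and 186 CPM in MaSC/basal, 472, 513 and 354 CPM in LP and 319, 368 and 278 CPM in ML (2.44-fold and 1.76-fold lower in MaSC/basal). *Dsc2* was at 19.2, 26.4 and 23 CPM, 20.7, 33.1 and 38.9 CPM and 90.1, 75.9 and 89.5 CPM, highest in ML (3.72-fold above MaSC/basal, adjusted p = 4.84e-05, and 2.76-fold above LP, adjusted p = 0.00158). It was not called between MaSC/basal and LP, whose libraries overlapped (log2 fold change -0.43, SE 0.22, adjusted p = 0.115), except without LP replicate 1 (log2 fold change -0.67, adjusted p = 0.0098).

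*Dsc3* was at 39.2, 32.1 and 40.4 CPM in MaSC/basal and 0.317, 0.543 and 0.801 CPM in LP (log2 fold change 6.12, SE 1.42, adjusted p = 0.00412). *Dsg3* was at 11.2, 5.98 and 15 CPM in MaSC/basal and 0.317, 0.431 and 0.587 CPM in LP (log2 fold change 4.63, SE 1.35, adjusted p = 0.0139). Neither gene had overlapping libraries in that comparison. In ML cells a single library decided both genes: *Dsc3* was at 1.1, 1.2 and 41.4 CPM and *Dsg3* at 0.481, 0.478 and 16.6 CPM, with ML replicate 3 above every MaSC/basal library. With all ML libraries neither was called against MaSC/basal (log2 fold change 1.39, SE 1.07, adjusted p = 0.287 for *Dsc3*, and log2 fold change 0.97, SE 1.04, adjusted p = 0.45 for *Dsg3*). Without ML replicate 3 both were higher in MaSC/basal than in ML (log2 fold change 5.00, adjusted p = 1.51e-06 for *Dsc3*, and log2 fold change 4.47, adjusted p = 2.24e-05 for *Dsg3*), as they were with batch as a block (log2 fold change 4.4, adjusted p = 0.00146, and log2 fold change 3.75, adjusted p = 0.00465). Batch 3, which holds ML replicate 3, has no MaSC/basal library. The block therefore rests mainly on batches 1 and 2 here and is no separate support.

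In the comparison of LP and ML cells, *Dsc3* was called higher in ML (log2 fold change -4.73, SE 1.38, adjusted p = 0.0266), and *Dsg3* was not (log2 fold change -3.66, SE 1.36, adjusted p = 0.0659). The *Dsc3* value fell in size to -1.12 without ML replicate 3 (adjusted p = 0.0281), that of *Dsg3* to -0.16 (adjusted p = 0.843), and the *Dsc3* call was lost without any 1 of LP 1, LP 2 and LP 3 (log2 fold changes -4.95 to -4.45, adjusted p = 0.0585 to 0.089). The *Dsg3* difference was called without any 1 of ML 1 and ML 2 (log2 fold changes -4.27 to -4.22, adjusted p = 0.0187 to 0.0345). The same library was above the other ML libraries in 9 of 12 epidermal keratinocyte markers and above all 8 other sorted libraries in 7 of 12. The list was written after the keratins of that library had been noticed, and no share over all genes was taken. These counts therefore only describe that library. The 12 markers summed to 91.7, 98.5 and 323 CPM in ML replicates 1 to 3, with none of the 12 at 0 in all ML libraries. ML replicate 3 was also the highest ML library for *Pkp1* and *Perp*. With each sorted library left out, their LP against ML values ran over -1.58 to -1.09 and -1.01 to -0.56. The part of epidermal RNA in the *Dsg3*, *Dsc3*, *Pkp1* and *Perp* values was not tested.

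*Dsp*, *Jup* and *Perp* were abundant in every sorted population. *Dsp* was at 1267, 1268 and 1813 CPM in MaSC/basal, 392, 455 and 484 CPM in LP and 742, 644 and 751 CPM in ML, 3.27-fold and 2.03-fold higher in MaSC/basal (log2 fold change 1.71, SE 0.19, adjusted p = 4.02e-05 against LP). *Perp*, encoding a tetraspan protein that stratified epithelia need for stable desmosomes and a known target of p63 and p53, was at 531, 538 and 468 CPM in MaSC/basal, 59.3, 66.5 and 76.1 CPM in LP and 105, 93.3 and 165 CPM in ML, 7.62-fold and 4.23-fold higher in MaSC/basal. MaSC/basal replicate 1, with the p53 name, lay inside the range of the other MaSC/basal libraries for *Perp*. *Jup*, which desmosomes and adherens junctions share, was at 584, 583 and 682 CPM, 972, 1088 and 781 CPM and 759, 932 and 619 CPM, 1.54-fold lower in MaSC/basal than in LP (adjusted p = 0.0206). That call was lost without any 1 of LP 2, MaSC/basal 1 and MaSC/basal 2 (log2 fold changes -0.58 to -0.52, adjusted p = 0.0628 to 0.0727), and the call against the luminal mean (log2 fold change -0.47, adjusted p = 0.0361) without any 1 of LP 1, LP 2, ML 1, ML 2, MaSC/basal 1, MaSC/basal 2 and MaSC/basal 3 (log2 fold changes -0.54 to -0.39, adjusted p = 0.0528 to 0.125). Against ML, *Jup* was not called (log2 fold change -0.32, SE 0.20, adjusted p = 0.183) except with batch as a block (log2 fold change -0.47, adjusted p = 0.0202).

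**Figure D4:**
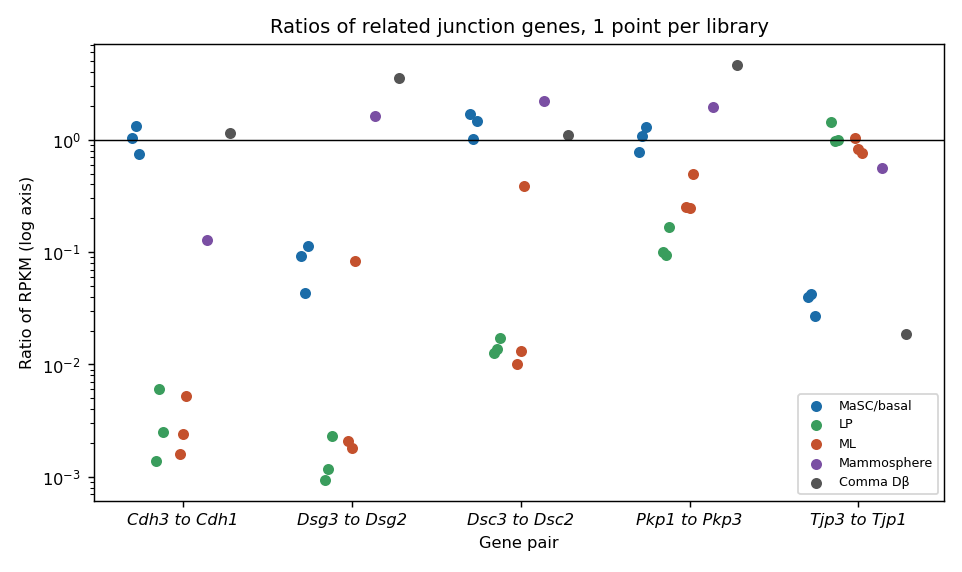
Ratio of RPKM of related genes in each library on a log axis, with a line at a ratio of 1. MaSC/basal libraries lie near 1 for *Cdh3* to *Cdh1*, *Dsc3* to *Dsc2* and *Pkp1* to *Pkp3*, luminal libraries lie below, and *Tjp3* to *Tjp1* is turned round. One ML point, replicate 3, is raised most for the Dsg and Dsc pairs. It is also the highest ML point for *Cdh3* to *Cdh1* and *Pkp1* to *Pkp3*.

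The ratios of these paralogs do not depend on library scaling. Except for *Dsg3* to *Dsg2*, where ML replicate 3 lay inside the MaSC/basal range, no luminal library reached the MaSC/basal range. *Dsc3* to *Dsc2* was 1.01 to 1.7 in MaSC/basal and 0.0128 to 0.0171 in LP libraries, and 0.0102, 0.0131 and 0.385 in the ML libraries. *Dsg3* to *Dsg2* ranged from 0.0429 to 0.113 in MaSC/basal libraries, from 9.37e-04 to 0.00231 in LP libraries, and was 0.0021, 0.00181 and 0.0834 in ML. *Dsg2* was the more abundant desmoglein in every sorted library, whereas in MaSC/basal cells *Dsc3* matched or exceeded *Dsc2*. For *Pkp1* to *Pkp3* the MaSC/basal libraries gave 0.771 to 1.3, the LP libraries 0.0949 to 0.167 and the ML libraries 0.247 to 0.496.

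Between LP and ML cells, 5 members were higher in LP and 8 higher in ML, where 31.8% of all tested genes were called (14.3% and 17.5%), and 18 members were not called. Those higher in LP were *Cldn1*, *Cldn2*, *Marveld2*, *Tjp3* and *Pkp2*, and those higher in ML were *Cldn6*, *Cldn8*, *Cldn10*, *Dsc2*, *Dsc3*, *Dsp*, *Pkp1* and *Perp*. Claudins divided 2 to 3 between LP and ML, and desmosome genes 1 to 5. The smallest of these differences rested on few libraries. *Marveld2* (1.33-fold, adjusted p = 0.0278) lost its call without any 1 of LP 1, LP 3, ML 1 and ML 2 (log2 fold changes 0.38 to 0.40, adjusted p = 0.073 to 0.0999), without the TMM factors (log2 fold change 0.24, adjusted p = 0.193) and without the filter (log2 fold change 0.41, adjusted p = 0.0513). *Tjp3* (1.58-fold, adjusted p = 0.018) lost it without any 1 of LP 1 and ML 3 (log2 fold changes 0.47 to 0.65, adjusted p = 0.0503 to 0.0526).

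*Dsp* (1.61-fold higher in ML, adjusted p = 0.0215) lost its call between LP and ML without any 1 of LP 1, LP 2, ML 1 and ML 3 (log2 fold changes -0.68 to -0.58, adjusted p = 0.060 to 0.0865), and *Perp* (1.8-fold, adjusted p = 0.0148) without any 1 of LP 1 and LP 2 (log2 fold changes -0.81 to -0.74, adjusted p = 0.0512 to 0.0608). *Dsg2*, higher in LP on average (log2 fold change 0.47, SE 0.17, adjusted p = 0.0607), was called without any 1 of LP 3 and ML 2 (log2 fold changes 0.58 to 0.63, adjusted p = 0.0246 to 0.0449) and with batch as a block (log2 fold change 0.47, adjusted p = 0.0148). *Pkp1* was 2.53-fold higher in ML (adjusted p = 0.00537) and *Pkp2* 1.49-fold higher in LP (adjusted p = 0.00966). Without LP replicate 1, 3 members were higher in LP and 5 in ML (10.9% and 10.8% of all genes), and without LP replicate 2, 5 were higher in ML (11.4%). All 13 calls had the same direction within each of the 3 batches, which was again largely fixed in advance because the calls came from these libraries.

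Other junction genes, taken from lists by role, were called in both directions. Of 30 other tight junction and polarity genes tested, 12 were higher and 11 lower in MaSC/basal than in luminal cells, beside the 61.7% of all genes called. *Clmp* (an immunoglobulin-family adhesion protein, 13.7-fold) and *Pard6g* (a polarity adaptor, 13.5-fold) were higher in MaSC/basal, and *Igsf5* (JAM4, 47.2-fold) and *Crb3* (the epithelial Crumbs polarity protein, 14.5-fold) lower. Of 14 other claudins and claudin-like genes only 2 passed the filter, of which *Cldnd1* was 1.58-fold higher in MaSC/basal.

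Beside the counts that follow, 61.7% of all genes were called in the same comparison (31.2% higher and 30.5% lower in MaSC/basal). Of 12 other adherens junction genes, 6 were higher and 6 lower. N-cadherin (*Cdh2*) was 28.1-fold and *Nectin3* 15.6-fold higher in MaSC/basal cells, and *Nectin4* was 36.6-fold lower. Of 9 other desmosome and plaque genes 5 were tested, with *Pkp4* higher (1.91-fold) and the plakins *Evpl* (10.2-fold) and *Ppl* (5.47-fold) lower in MaSC/basal. Of 8 gap junction genes 5 were higher in MaSC/basal, among them *Gjc1* (18.6-fold) and *Gja1*, which encodes connexin 43 (15.7-fold), and 2 were lower, *Gjb2*, which encodes connexin 26 (13.8-fold), and *Gjb1*, at 0.521 CPM in luminal cells (4.46-fold).

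Of 18 factors known to act on junction genes, 3 were higher and 6 lower in MaSC/basal cells, again beside 61.7% of all genes called. *Snai2*, encoding the E-box repressor SLUG, was at 118, 86.9 and 121 CPM in MaSC/basal and 0.518 to 3.48 CPM in luminal libraries (log2 fold change 6.48, SE 0.37, adjusted p = 2.65e-07). For *Snai1*, *Zeb1* and *Zeb2*, the other SNAI and ZEB genes of the list, the libraries of the layers overlapped. In raw counts, LP replicate 2 had 858, 227 and 327 for these genes. The MaSC/basal libraries had 313 to 439, 116 to 196 and 191 to 263. *Trp63*, encoding p63, was at 334, 456 and 219.8 CPM in MaSC/basal against 1.89 to 24.8 CPM, the highest luminal value being ML replicate 3 (59.8-fold, adjusted p = 5.30e-05). The epithelial ETS factors *Elf5* and *Elf3* were 36.9-fold and 8.8-fold lower in MaSC/basal. Levels of a factor and of junction genes are given side by side, and no dependence of one on the other was tested.

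The cultures were compared with the mean of the MaSC/basal libraries as differences of log2 CPM (prior count 2). Each is a single library, so no test was made and the differences have no replicate check. The mammosphere library was in batch 1 with MaSC/basal replicate 1, and MaSC/basal replicates 2 and 3 were in batch 2. Culture and batch can therefore not be fully told apart in that comparison. In mammosphere cells 16 of 31 members were more than 1 log2 unit above the MaSC/basal mean and 2 were below, where 39.7% of all tested genes passed that difference (19.7% higher, 20% lower). The median difference was 1.42, against -0.00575 over all genes, and 23 members lay above all MaSC/basal libraries and 4 below (40.8% and 42% of all genes). In Comma Dβ cells 4 were higher and 17 lower, where 41.7% of all genes passed (16.9% higher, 24.8% lower), with a median of -1.39 against 0.018 over all genes, and 7 lay above all MaSC/basal libraries and 22 below (42.1% and 42.2% of all genes). Past a difference of 2, 1 member was higher and 10 lower in Comma Dβ cells (5.1% and 14.6% of all genes).

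**Figure D5:**
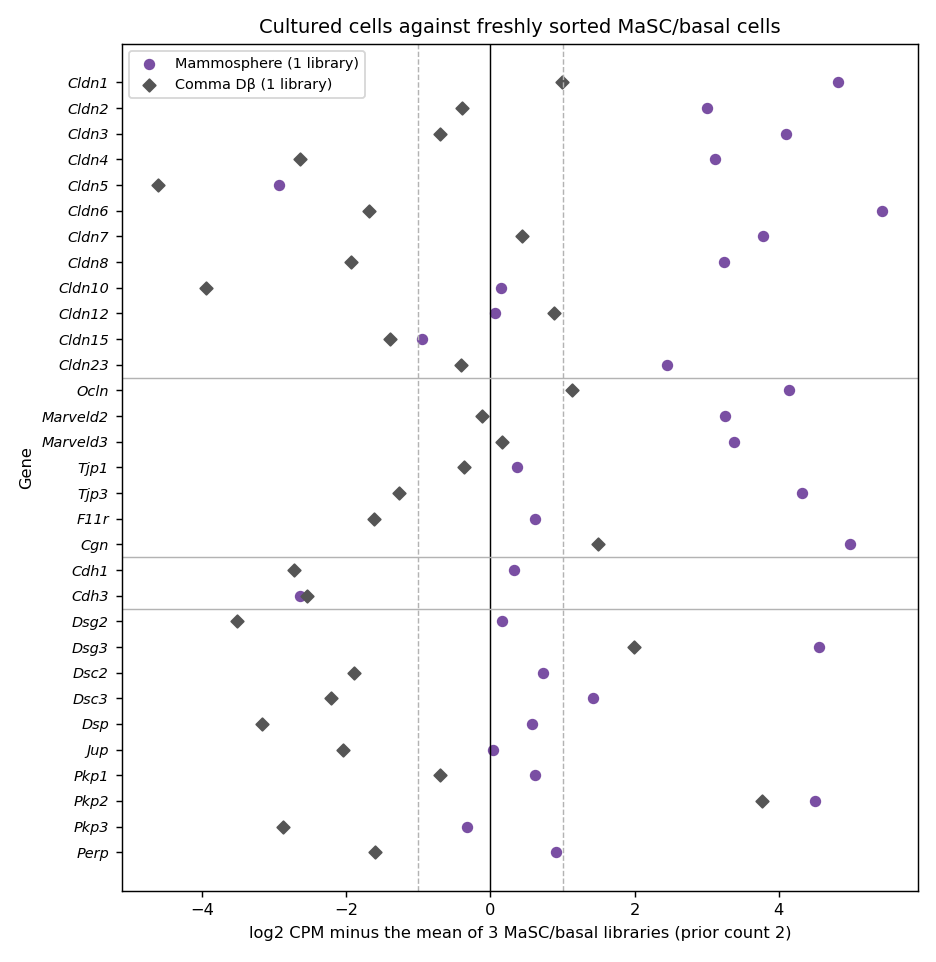
Difference of log2 CPM between each culture and the mean of the 3 MaSC/basal libraries for the 31 tested members, with dashed lines at -1 and 1. Mammosphere points (circles) lie mostly to the right for claudins and other tight junction genes, up to 5.43 for *Cldn6*, and Comma Dβ points (diamonds) mostly to the left for desmosome genes, down to -3.51 for *Dsg2*. Each point is 1 library, so it carries no error bar.

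In mammospheres most claudins and other tight junction genes were above their MaSC/basal level. Summed claudin RPKM was 599, above every MaSC/basal library and below every luminal one. *Cldn4* was at 526 CPM (8.63-fold above the MaSC/basal mean), *Cldn3* at 163 CPM (17.1-fold), *Cldn1* at 212 CPM (28.2-fold) and *Cldn6* at 30.03 CPM (43.2-fold). *Cldn1* exceeded every ML library and *Cldn6* every LP library. *Ocln* (48.1 CPM), *Marveld2* (29.99 CPM), *Marveld3* (36.7 CPM), *Tjp3* (71.1 CPM) and *Cgn* (97.4 CPM) lay above all MaSC/basal and below all LP and ML libraries. Luminal markers summed to 3334 CPM and basal markers to 5448 CPM, against 1361 to 1613 and 18626 to 25862 CPM in MaSC/basal libraries, and the part of a changed mix of cells in these differences was not tested.

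Desmosome genes of stratified epithelia were also high in mammospheres. *Dsg3* was at 238 CPM, 23.6-fold above the MaSC/basal mean, *Dsc3* at 99.4 CPM (2.68-fold) and *Perp* at 959 CPM (1.88-fold), each above every sorted library. In RPKM *Dsg3* exceeded *Dsg2*, with a ratio of 1.63, and *Pkp1* exceeded *Pkp3* (1.96). *Pkp2*, at 1.61 to 2.09 CPM in MaSC/basal cells, was at 42.7 CPM (22.6-fold). *Cdh3* was at 53.8 CPM, 6.26-fold below the MaSC/basal mean, while *Cdh1* at 465 CPM stayed within the MaSC/basal range, which put the ratio of *Cdh3* to *Cdh1* at 0.128. *Cldn5* was at 0.541 CPM, 7.62-fold below.

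In Comma Dβ cells 7 of 10 desmosome genes, both cadherins and 6 of 12 tested claudins were more than 1 log2 unit below the MaSC/basal mean. The 7 other tight junction genes had a median difference of -0.12, with 2 higher and 2 lower by more than 1. Over all genes 24.8% were lower and 16.9% higher by more than 1. Summed claudin RPKM was 45.8, below every MaSC/basal library, and *Cldn12* made up 50.2% of it, at 93.8 CPM. *Cldn4* was at 9.7 CPM (6.26-fold below the MaSC/basal mean), and *Cldn6* and *Cldn8* were both at 0.17 CPM. Among desmosome genes, *Dsg2* at 15.9 CPM (11.4-fold), *Dsp* at 159 CPM (8.98-fold) and *Pkp3* at 33.4 CPM (7.33-fold) lay furthest below. *Cdh1* and *Cdh3* were both low, at 55.7 and 57.5 CPM, with a ratio of *Cdh3* to *Cdh1* of 1.1 in RPKM, inside the MaSC/basal range. The 4 members more than 1 log2 unit above MaSC/basal were *Pkp2* (13.6-fold, 25.7 CPM), *Dsg3* (3.99-fold, 40.1 CPM), *Cgn* (2.81-fold, 8.58 CPM) and *Ocln* (2.19-fold, 5.92 CPM). Fibroblast markers summed to 3699 CPM in Comma Dβ, 2432 CPM in mammosphere and 737 to 980.4 CPM in MaSC/basal libraries, but the list was split. In both cultures *Col1a1*, *Col1a2*, *Col3a1* and *Pdgfra* were above every MaSC/basal library in CPM, and *Dcn*, *Fbln1* and *Pi16* were below. *Lum* was below in Comma Dβ and above in mammosphere cells. The part of fibroblast RNA was not tested. Strain, culture and batch differ together between Comma Dβ and MaSC/basal cells and cannot be told apart.

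The cultures shared the same MaSC/basal libraries as reference, so their differences are given side by side only. *Pkp2*, *Dsg3*, *Ocln* and *Cgn* were more than 1 log2 unit higher in both, and *Cdh3* and *Cldn5* lower in both. The share of all genes that did so was not taken. *Cldn5* rested on 4 reads in the Comma Dβ library. For *Pkp2* the differences were 4.50 in mammosphere and 3.77 in Comma Dβ cells, and for *Cdh3* -2.65 and -2.55.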

How the data were processed

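RNA-seq was analysed for 11 libraries, grouped by their labels. The authors aligned single-end reads to mm10 with Rsubread 1.14.1, assigned them to genes with featureCounts and deposited raw counts per gene with gene length for each library. Handling of multi-mapping reads and strand is not given in the sources used here, so reads shared by paralogs or antisense genes are uncertain. Symbols were taken from RefSeq for 25275 and GENCODE for 18 of 27179 genes. The members and lists were chosen with earlier results of these data known.

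Genes over 0.5 CPM in at least 3 libraries (15422) were fitted with TMM factors and the quasi-likelihood test of edgeR 4.0.16 (R 4.3.3) in a model of 5 group means over all 11 libraries, with Benjamini-Hochberg adjustment. SE is the log2 fold change divided by the square root of F. RPKM is scaled CPM per kilobase of the deposited gene length. No pair of libraries was identical. In simulated counts of 15422 genes, the test recovered 100 of 100 genes given a log2 difference of 1 between MaSC/basal and LP cells, with 6 false calls, and 100 of 100 against ML, with 12. LP and ML were simulated alike, which gave 1 false call. Every simulated gene had the same dispersion, no batch effect was added, and changes were placed only in genes above a set mean level. These numbers therefore do not carry over to members with a wider spread or a low level, such as *Dsc3*, *Dsg3* and *Cldn15*.

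All 34 members are named, and genes of other lists are the top 2 in each direction between MaSC/basal and luminal cells, called and without overlap. One of these is not reported here. Keratins and other markers named beside a result were chosen after their values were seen. Batch, as given in the labels, was fitted as a replicate block: deviations from group means correlated at -0.12 to 0.53 between libraries of different populations in the same batch. Between different batches they correlated at -0.42 to 0.11. LP and ML libraries of the same batch correlated at 0.32, 0.31 and 0.53 in batches 1, 2 and 3. The main fit did not pair them. Batch 1 used an earlier library kit than batches 2 and 3. Replicate numbers are names in accession order. Alternatives were DESeq2 size factors, no TMM factor, limma 3.58.1 (voom), DESeq2 1.42.0 (Wald), other filters, the 9 sorted libraries alone, the block and each sorted library left out.

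Depth of 19958838 to 75795034 counts makes 0.5 CPM worth 9.36 to 37.6 counts. These limits cover counting error only.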

Additional observations from a re-analysis of the deposited data

Results flagged for a closer look

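Each of 5 genes lay above the MaSC/basal mean in the mammosphere library and below it in the Comma Dβ library by more than 1 log2 unit. *Cldn4* differed by 3.11 and -2.65, *Cldn6* by 5.43 and -1.68, *Cldn8* by 3.24 and -1.94, *Tjp3* by 4.32 and -1.27, and *Dsc3* by 1.42 and -2.21, each in the order mammosphere, Comma Dβ. They were singled out because the cultures moved in opposite directions. *Cldn6* and *Cldn8* rested on 5 reads each in the Comma Dβ library. Past 1 log2 unit in either direction lay 39.7% of all tested genes in the mammosphere and 41.7% in the Comma Dβ library. The share of all genes that moved in opposite directions was not taken, so the number of such members is not read as unusual. With 1 library of each culture the difference was not tested, and both cultures share the MaSC/basal libraries as reference.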

How the results depend on the processing

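Of 124 member comparisons, 31 changed call or sign under at least 1 alternative: 15 lost a call, 8 gained one and 8 changed sign without a call. No called difference changed sign. Without the TMM factor, which moved the median of all genes by 0.15 (MaSC/basal against LP) and -0.17 (LP against ML), the uncalled LP against ML values became -0.062 (*Cldn3*), -0.15 (*Cldn7*), -0.038 (*Marveld3*), -0.13 (*Cdh1*) and -0.085 (*Pkp3*), and over all genes 1581 were higher in LP and 3798 in ML, against 2204 and 2695. With each sorted library left out, LP against ML values ran over -0.033 to 0.30 (*Cldn3*), -0.11 to 0.18 (*Cldn7*), -0.065 to 0.57 (*Cldn15*), -0.012 to 0.30 (*Marveld3*), -0.18 to 0.12 (*Cgn*), -0.0091 to 0.10 (*Cdh1*), -0.59 to 0.75 (*Cdh3*) and -0.025 to 0.15 (*Pkp3*), and the numbers of members over 3 to 5 higher in LP and 5 to 9 higher in ML. Counts of members called under the other alternatives stayed within 1.5 times the reported ones. The replicate block by batch changed 7 calls: *Cldn12* (MaSC/basal against LP, 0.36) and *Tjp1* (against the luminal mean, -0.34) were lost, and *Cldn5*, *Dsg3*, *Dsc3* and *Jup* (against ML) and *Dsg2* (LP against ML) were gained. It changed no other call. At a log2 difference of 2, 1 member was higher and 10 lower in Comma Dβ cells (5.1% and 14.6% of all genes). With CPM not divided by length, *Cldn4* made up 39.9% of claudins in MaSC/basal, 47.5% in mammosphere and 7.08% in Comma Dβ cells, and *Cldn12* 33.5% in MaSC/basal, 1.03% in LP, 0.705% in ML, 4.83% in mammosphere and 68.5% in Comma Dβ cells. The cause was not tested beyond what each setting changes by construction. Depth limits *Cldn2*, *Cldn5*, *Cldn6*, *Cldn8* and *Cldn10* in Comma Dβ cells, where 3 counts are 0.102 CPM. In that order they had 4, 4, 5, 5 and 9 reads.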

Other observations

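Several genes of cornifying epidermis that belong to no comparison of the members were high in the mammosphere library. Of the 12 epidermal keratinocyte markers, 8 lay above all MaSC/basal libraries there, beside 40.8% of all tested genes. Of these 8, *Krt77* rested on 11 reads. Another 3 lay within the MaSC/basal range (*Krt1*, *Lor* and *Lgals7*). The remaining 1, *Krt15*, lay below at 4.13 CPM against 846 to 1261 CPM, beside 42% of all tested genes. The sum of the 12 in the mammosphere library, 1180.2 CPM, lay inside the MaSC/basal range of 1073 to 1687 CPM. *Sbsn* was at 408 CPM there against 1.79 to 2.52 CPM in MaSC/basal and 22.1 to 52.2 CPM in luminal libraries. *Dmkn* was at 350.2 CPM against 1.77 to 3.22 and 10.9 to 44.1 CPM. *Krtdap* was at 93.5 CPM and *Calm4* at 64.8 CPM, and in the sorted libraries both were highest in ML replicate 3, at 6.24 and 6.33 CPM. *Dsg1a*, a desmoglein of upper epidermal layers, followed the same order, at 27.2 CPM in mammosphere cells, 17 CPM in ML replicate 3 and 0.0187 to 0.465 CPM in the other sorted libraries. *Krt1*, by contrast, was at 0.271 CPM in mammosphere cells and 52.5 CPM in ML replicate 3. These genes were named after their values were seen, and the mammosphere values come from 1 library.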
